A study of Mus musculus with 20 samples.

Results

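Border-associated macrophages are the resident macrophages of the meninges, the perivascular spaces and the choroid plexus. Their markers were followed here through bulk RNA sequencing of mouse microglia, the macrophages of the brain tissue itself. The members are 9 genes taken by name, Mrc1, Cd163, Lyve1, Pf4, Stab1, F13a1, Cbr2, Cd209a and Cd209f, out of 55487 gene identifiers in the deposited counts. All 9 were found, and all 9 were among the 16595 genes kept for testing.

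The series holds 20 libraries, 1 labelled cortex and 1 labelled brainstem from each of 10 mice. Mutant mice (VE) carried Braf LSL-V600E, a Braf allele that yields the constitutively active V600E kinase once Cre has acted, together with 1 copy of Cx3cr1-CreER. In every group 4-hydroxytamoxifen, the drug that activates CreER, had been given once at 37.5 mg per kg to the pregnant mothers at embryonic day 9.5. Groups were VE and control (Ctrl) mice at the stage that the labels call end-stage, for which no age was given, with 2 mice each, and VE and Ctrl mice at 2 months with 3 mice each. The 2-month controls and end-stage control M1521 carried Cx3cr1-CreER without the Braf allele, whereas end-stage control M1375 carried the Braf allele without Cre. Cx3cr1 is also expressed by other mononuclear phagocytes, so Cre is not restricted to microglia. The method of cell purification is not given in the sources used here.

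Some labels limit what follows. Among the 6 mice at 2 months, 5 have 1 number in the record's title and another in the name of their count column, and the genotype of 4 depends on which number is read. Here M2617, M2624 and M2621 are the 2-month VE mice and M2618, M2629 and M2633 the 2-month Ctrl mice, by the number in the count column, and the members' 2-month results are set beside those under the genotype of the record itself, in full or as counts. Only M2624 and M2629 have the same genotype under both readings. Transcripts of 39 Hox genes, which are active in the hindbrain and not in the cortex, summed to 0.966 ± 0.463 CPM (counts per 1000000 counts of a library) in brainstem-labelled libraries and 2.33 ± 0.985 CPM in cortex-labelled libraries (SD, n = 10 each). In 8 of 10 mice this sum was greater in the library labelled cortex, so regions are named by label only. Deposited counts summed to between 9395203 and 21171114 per library, so that 3 counts, the limit a count of 0 allows, correspond to 0.147 to 0.318 CPM. Microglial genes dominated, with 12 marker genes summing to 38024 to 75262 CPM.

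As background, border-associated macrophages sit where blood and cerebrospinal fluid meet the brain and take up material from both. Much of their signature consists of uptake receptors. Mrc1 encodes the mannose receptor CD206, Cd163 the receptor for haptoglobin-haemoglobin complexes, Lyve1 a hyaluronan receptor and Stab1 the scavenger receptor stabilin-1. Cd209a and Cd209f encode C-type lectins of the DC-SIGN family, and Cd209a also marks some dendritic cells. Pf4 encodes the chemokine platelet factor 4, F13a1 the A subunit of coagulation factor XIII, and Cbr2 a carbonyl reductase.

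Promoter sequence is shown for Stab1, the member with by far the highest level, and for Pf4 and Cbr2, which moved together across libraries. The 3 stretches run from 250 bases before to 50 bases after the annotated start, 5′ to 3′ on the gene's own strand, and come from RefSeq on GRCm38.p6. Stab1 lies on the minus strand at chr14:31168592-31168891, Pf4 on the plus strand at chr5:90772185-90772484 and Cbr2 on the minus strand at chr11:120731972-120732271. Capitals mark GAGGAA, or TTCCTC where it lies on the other strand, the core of the site bound by the macrophage factor PU.1.
Stab1: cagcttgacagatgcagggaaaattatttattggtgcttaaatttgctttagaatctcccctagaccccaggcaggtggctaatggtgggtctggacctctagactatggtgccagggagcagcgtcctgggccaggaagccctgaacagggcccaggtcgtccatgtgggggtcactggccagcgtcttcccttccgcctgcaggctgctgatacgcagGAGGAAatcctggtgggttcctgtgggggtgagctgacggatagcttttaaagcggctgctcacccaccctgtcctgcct
Pf4: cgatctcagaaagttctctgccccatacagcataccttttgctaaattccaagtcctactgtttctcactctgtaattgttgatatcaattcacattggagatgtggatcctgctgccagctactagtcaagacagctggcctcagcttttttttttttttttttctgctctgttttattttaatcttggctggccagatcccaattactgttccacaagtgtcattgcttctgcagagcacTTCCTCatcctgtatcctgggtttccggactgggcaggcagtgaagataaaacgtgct
Cbr2: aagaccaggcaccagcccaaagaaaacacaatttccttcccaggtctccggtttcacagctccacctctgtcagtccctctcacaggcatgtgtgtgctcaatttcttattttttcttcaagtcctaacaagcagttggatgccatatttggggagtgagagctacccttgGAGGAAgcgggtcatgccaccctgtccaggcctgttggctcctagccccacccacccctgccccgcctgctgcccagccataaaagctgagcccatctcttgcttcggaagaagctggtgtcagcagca
RefSeq held promoters for 8 of the 9 members, all but Lyve1. GAGGAA, searched on both strands, was present in 5 of these 8 members (Mrc1, Pf4, Stab1, F13a1 and Cbr2), counted by gene. Counted by single promoter, it was present in 28.3% of 32851 promoters of the same length. Counted from the start, its first base on the strand shown was at -30 in Stab1, -8 in Pf4 and -79 in Cbr2. The longer form GAGGAAGT, which contains it and occurs in 3.2% of promoters, was found in Pf4 and in a second F13a1 promoter. TGCTGA, part of the site bound by MAF factors and present in 19.5% of promoters, was found in Stab1, Cbr2 and Cd209a. The AP-1 site TGANTCA, present in 7.81% of promoters, was found in Cd209f. These matches describe letters in the windows and nothing was measured at them.

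Across the 20 libraries the markers divided into Stab1 and the rest. Stab1 (ENSMUSG00000042286.13, chr14:31139013-31168641, GRCm38) stood at 82.2 to 278 CPM with a median of 205 CPM, a total of 64662 counts, and was read in every library. The other members had few counts. Mrc1 (ENSMUSG00000026712.3, chr2:14229392-14332057) ranged from 0 to 6.56 CPM with a median of 2.18 CPM and 887 counts in all. Mrc1 and Cbr2 each had 1 library without a count. Cbr2 (ENSMUSG00000025150.10, chr11:120729489-120732114) ranged from 0 to 7.53 CPM with a median of 1.14 CPM, and Pf4 (ENSMUSG00000029373.7, chr5:90772435-90773383) from 0.111 to 5.30 CPM with a median of 0.948 CPM. Pf4 and Stab1 were the members with counts in all 20 libraries.

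The other 5 genes were without a count in several libraries. F13a1 (ENSMUSG00000039109.16, chr13:36867178-37050244) had a median of 0.608 CPM and no count in 4 libraries. Cd163 (ENSMUSG00000008845.9, chr6:124304656-124330527) had a median of 0.325 CPM and no count in 7 libraries, and Lyve1 (ENSMUSG00000030787.4, chr7:110850607-110863239) a median of 0.221 CPM and no count in 10. Cd209a (ENSMUSG00000031494.7, chr8:3743397-3748984) and Cd209f (ENSMUSG00000051906.15, chr8:4102787-4105835) lie 353.802 kb apart on chromosome 8 with 14 genes between them, 4 of which are other Cd209 genes. They had no count in 9 and 10 libraries. Of the 50-base stretches of Cd209f, 29.8% are also found in another gene, Cd209g, and 12.1% of those of Cbr2 are found in Gm11771, so counts of these 2 members may be split or shared. Whether counting used strand, and how it treated such reads, is not given in the sources used here. Stab1 shares 0.69% of such stretches with Nt5dc2, whose exons it overlaps, Nxnl2 or Snx10. F13a1 shares 0.404% with Gm30489, whose exons it overlaps, Gm43660, Nup88 or Rapgef5.

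**Figure D1:**
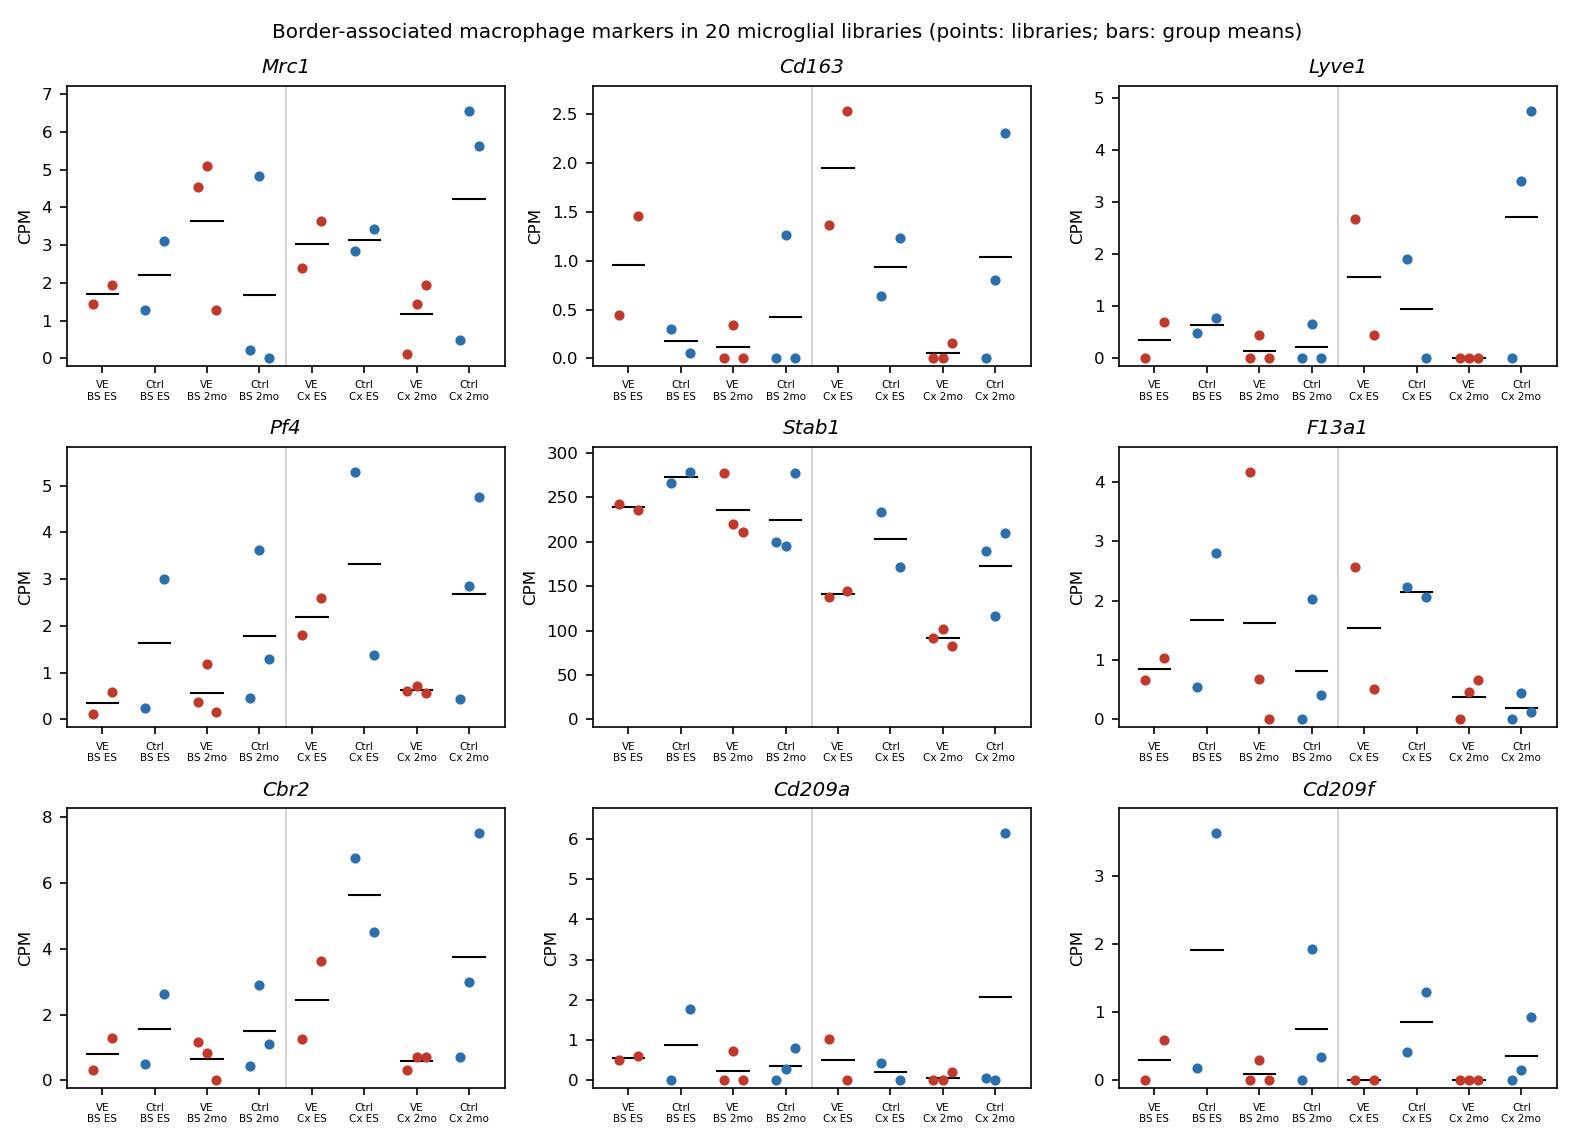
Level of each marker in CPM (vertical axis, scale differs by gene) in the 20 libraries, by brainstem-labelled (BS) and cortex-labelled (Cx) libraries, stage (ES, end-stage; 2mo, 2 months) and genotype; points are libraries and bars group means. Stab1 lies between 82.2 and 278 CPM and the other 8 genes reach at most 7.53 CPM.

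Per kilobase of exon, a scale on which genes can be compared, the median Stab1 level was 19.9 CPM per kb. The next members were Pf4 at 1.32, Cbr2 at 0.859 and Mrc1 at 0.342 CPM per kb, and the other 5 had medians of 0.0378 to 0.0903 CPM per kb. The ranges of those 8 over libraries overlapped, and no library put any of them above the lowest Stab1 level of 7.99 CPM per kb. Sall1, the lowest of 12 microglial genes, had a median of 71.2 CPM per kb, and P2ry12, a purinergic receptor of microglia, a median of 2356 CPM per kb. The plot of level per exon length shows Stab1 placed between the other markers and the microglial genes.

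**Figure D2:**
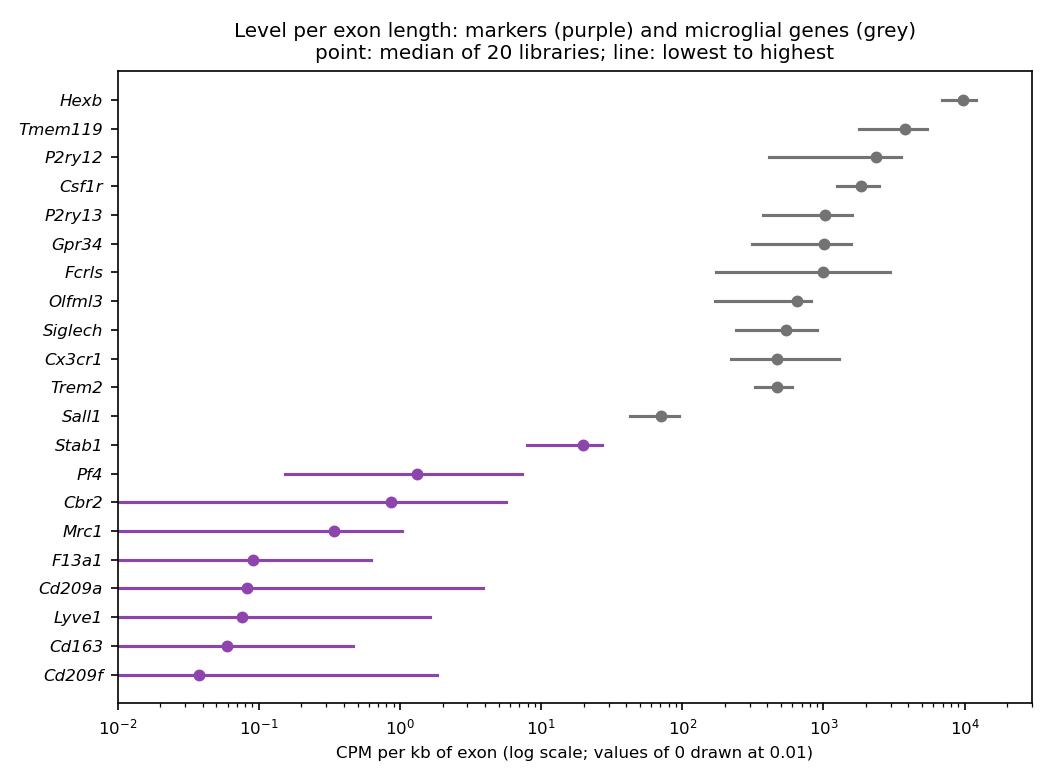
CPM per kb of exon (horizontal axis, log scale) for the 9 markers (purple) and 12 microglial genes (grey); points are medians of 20 libraries and lines run from the lowest to the highest library, with 0 drawn at the left edge. The Stab1 median of 19.9 CPM per kb lies above Pf4 at 1.32 and below Sall1 at 71.2.

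Without Stab1, the markers summed to 1.04 to 32.2 CPM per library, with a median of 8.93 CPM. Marker lists of meningeal and perivascular fibroblasts, cells that share the niche of border-associated macrophages, summed to 0 to 2.11 CPM, and those of choroid plexus epithelium to 0 to 0.801 CPM. Lum was at 0 in all 20 libraries and Ttr had 17 counts in all. Transcripts of these neighbouring cells were thus at or near 0 in all 20 libraries. In bulk RNA, fewer cells of a type and less RNA per cell cannot be told apart.

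Over the 20 libraries together, on log2(CPM + 1), the Pearson correlation of Stab1 with each of the other members was between -0.03 and 0.37, but the regions differed. In brainstem-labelled libraries it was between -0.36 and 0.43, and in cortex-labelled libraries between 0.27 and 0.74 (n = 10 mice each). The highest cortex-labelled values were with Cbr2 (r = 0.74, rho 0.67, and 0.63 without the 2 libraries farthest from the Stab1 median), Pf4 (r = 0.63, rho 0.55, and 0.23 without 2) and Cd209f (r = 0.59, rho 0.60, and 0.58 without 2). Pf4 and Cbr2 had the closest pattern among the markers over the 20 libraries (r = 0.90). In brainstem-labelled libraries their r was 0.89 (Spearman's rho 0.83, n = 10 mice) and 0.64 without the 2 libraries farthest from the Pf4 median. In cortex-labelled libraries r was 0.90 (rho 0.84, n = 10) and 0.79 without 2. The cortex-labelled libraries of Ctrl mice M1375 and M2633 held the 2 highest levels of both genes. Libraries of 1 region share genotype, stage and depth differences, and the pair was picked after its values were seen, so these values are a description without a test.

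Over 9808 candidates, genes whose log2 CPM averaged at least 1, the genes with the pattern most like that of Stab1 over the 20 libraries were Nek6 (r = 0.87), Slc39a12 (r = 0.86) and Rxra (r = 0.86). For the other members the closest gene was Trim41 for Lyve1 (0.82), Pmm2 for Cbr2 (0.79), Zbtb43 for F13a1 (0.77), Tpra1 for Pf4 (0.76), Sec22a for Cd209f (0.76), Pcsk4 for Cd163 (0.74), Aste1 for Cd209a (0.71) and Trmt6 for Mrc1 (0.60). These genes head rankings over all candidates, and no test was made.

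The first comparison asked how VE differed from Ctrl microglia in cortex-labelled libraries at 2 months, where Stab1 fell. Stab1 stood at 91.4, 101 and 82.2 CPM in VE mice M2617, M2621 and M2624, against 189.8, 116 and 210.03 CPM in Ctrl mice M2618, M2629 and M2633. Every VE library lay below every Ctrl library, although M2629 was much closer to the VE libraries than the other controls. The means were 91.7 ± 9.64 CPM in VE and 172 ± 49.4 CPM in Ctrl (SD, n = 3 each). The log2 difference of VE minus Ctrl was -0.91 ± 0.20 (SE), 0.533-fold, with an adjusted p of 0.0118 in edgeR's quasi-likelihood test with Benjamini-Hochberg adjustment over all genes. Stab1 was 1 of 9 members called, and 5.45% of all genes tested were called in this comparison, 1.81% in the direction of Stab1. The call was lost without VE mouse M2624 (adjusted p = 0.0605) and without Ctrl mouse M2633 (adjusted p = 0.0526), and with the 2 mice of undisputed genotype alone the difference was -0.49 (adjusted p = 0.720).

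Under the genotype of the record the Stab1 result turned round. VE mice are then M2618, M2624 and M2633 with 189.8, 82.2 and 210.03 CPM, and Ctrl mice M2617, M2621 and M2629 with 91.4, 101 and 116 CPM. The groups overlapped, the difference was 0.64 and the adjusted p was 1 in edgeR. Under that reading 0.00603% of genes were called in cortex-labelled libraries at 2 months and the same share, 0.00603%, in brainstem-labelled ones, none of them a member or a gene named below. The low members turned with it. Of the 9 log2 differences in cortex-labelled libraries 7 were then positive, with a median of 0.64, and all but Mrc1 had the other sign. Lyve1, for example, averaged 1.59 ± 2.75 CPM in VE and 1.14 ± 1.97 CPM in Ctrl, Cbr2 2.99 ± 3.94 CPM in VE and 1.34 ± 1.45 CPM in Ctrl, and Pf4 1.92 ± 2.46 CPM in VE and 1.39 ± 1.27 CPM in Ctrl (SD, n = 3 each). All 9 members had an edgeR adjusted p of 1. Stab1 and Cd209a were under 0.05 unadjusted, against 694 of 16595 genes tested. The next paragraphs return to the genotype by count column.

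None of the other 8 members was called at 2 months in cortex-labelled libraries, although low values collected in VE. Without the filter on low counts the edgeR fit called 6 of the 9 (Stab1, Lyve1, Cd209a, Cbr2, Cd163 and Cd209f), all lower in VE. That fit called 1551 of 33450 genes tested. These member calls depend on the choice of filter. Lyve1 had no count in any VE library, against 0, 3.41 and 4.76 CPM in Ctrl mice M2618, M2629 and M2633. On group means Lyve1 was at least 50.2-fold lower in VE, taking 3 counts over the group as the limit (edgeR adjusted p = 0.0925). The limit was at least 31.4-fold without Ctrl mouse M2633, and 32.5-fold without VE mouse M2621 or M2624. Under the genotype of the record the direction turned, with VE above Ctrl. The range in Ctrl libraries itself ran from 0 to the highest Lyve1 level of the series, so the groups met at 0.

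Cbr2 stood at 0.305, 0.718 and 0.721 CPM in VE mice M2617, M2621 and M2624, against 0.711, 3.01 and 7.53 CPM in Ctrl mice M2618, M2629 and M2633. Pf4 stood at 0.611, 0.718 and 0.566 CPM in the same VE mice, against 0.437, 2.85 and 4.76 CPM in the same Ctrl mice. Mrc1 stood at 0.122, 1.44 and 1.96 CPM in these VE mice and at 0.492, 6.56 and 5.62 CPM in these Ctrl mice. For all 3 genes M2629 and M2633 were high and M2618 was as low as the VE libraries, so the groups overlapped. In edgeR the log2 differences were -2.66 ± 1.03 for Cbr2 (adjusted p = 0.152), -2.07 ± 1.01 for Pf4 (adjusted p = 0.269) and -1.83 ± 1.17 for Mrc1 (adjusted p = 0.430).

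Cd163 had 3 counts in the VE group and 51 in the Ctrl group, with a log2 difference of -4.10 ± 1.84 (edgeR adjusted p = 0.223). Cd209a had 4 counts in VE and 94 in Ctrl, nearly all of them from M2633 at 6.14 CPM (adjusted p = 0.266 in edgeR). Cd209f had no count in VE and 17 in Ctrl (edgeR adjusted p = 0.249), which is at least 6.61-fold lower in VE on group means and at least 1.38-fold without M2633. F13a1 was the exception, with 0.377 ± 0.343 CPM in VE and 0.194 ± 0.232 CPM in Ctrl (SD, n = 3 each, edgeR adjusted p = 0.816). Of the 9 log2 differences 8 were negative, with a median of -2.66, against a median of -0.01 over all genes tested. The 8 low members summed to 1.04 to 4.27 CPM in VE and 1.69 to 32.2 CPM in Ctrl, and M2618, at the low end of Ctrl, lay inside the VE range.

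Other cell markers moved in the same libraries. Of 12 microglial genes, 4 were lower in VE (P2ry12, P2ry13, Gpr34 and Sall1) and none was higher, and the list summed to 52714 to 54984 CPM in VE and 61995 to 62644 CPM in Ctrl. Of 9 monocyte genes tested, 4 were higher in VE (Plac8, Fn1, Ms4a4c and Ly6i), and that list summed to 183.5 to 224 CPM in VE and 7.27 to 23.0 CPM in Ctrl. Of 6 endothelial and pericyte genes tested, 2 were higher (Flt1 and Kdr), with sums of 68.8 to 79.5 CPM in VE and 29.3 to 36.0 CPM in Ctrl. In that list Pecam1 had the highest level, a mean of 46.8 CPM over the 20 libraries, and was not called. Cldn5, Ly6c1 and Rgs5 had 9, 14 and 5 counts in all, so this sum does not stand for endothelial RNA as a whole. The fibroblast and choroid plexus lists had no gene with enough counts to test. The part of these lists in the Stab1 difference was not tested.

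**Figure D3:**
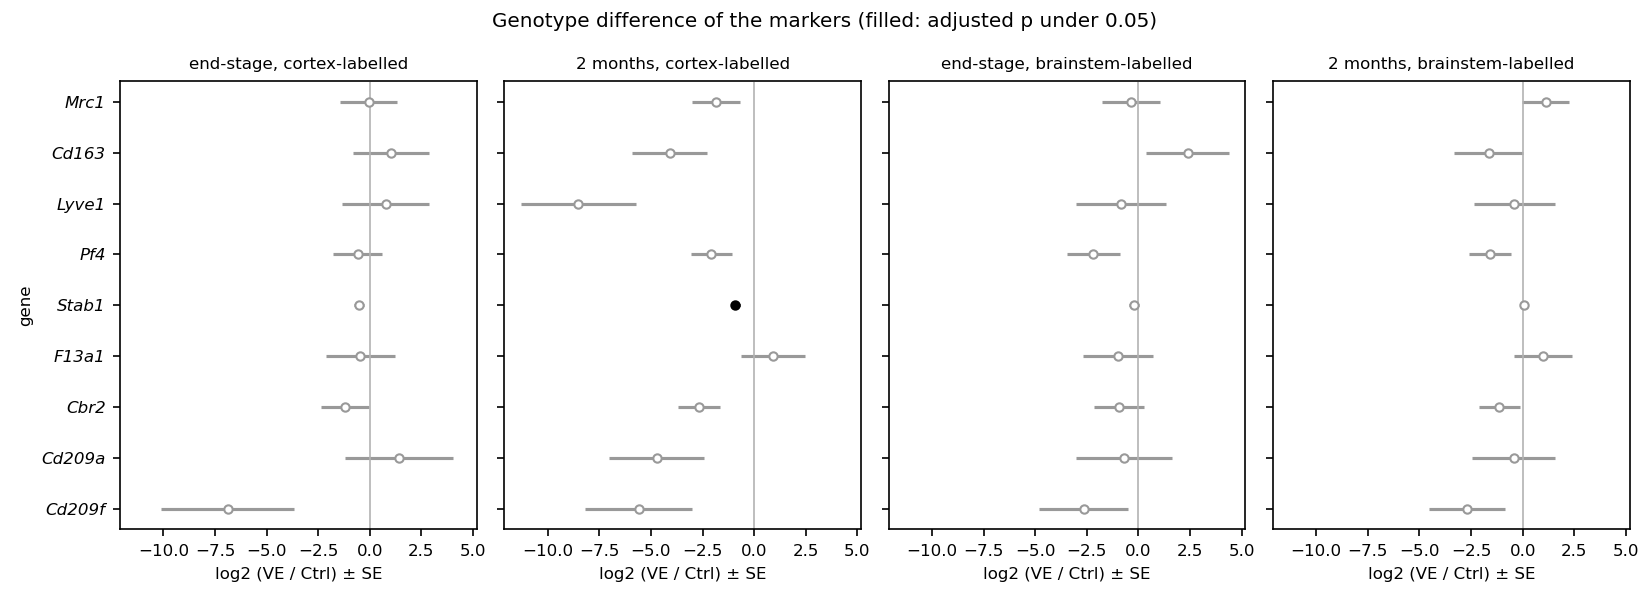
Log2 difference of VE over Ctrl with its standard error (horizontal axis) for each marker in edgeR, in 4 panels by stage and region label; the filled point has an adjusted p under 0.05. Only Stab1 at 2 months in cortex-labelled libraries, at -0.91, is filled, and the value of a gene without a count in 1 group, such as Lyve1 in that panel, depends on the prior count of the fit.

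At end-stage in cortex-labelled libraries, no member was called. Stab1 stood at 137.9 and 144 CPM in VE mice M1376 and M1524, against 234 and 171 CPM in Ctrl mice M1375 and M1521. The groups did not overlap, and the log2 difference was -0.52 ± 0.25 (edgeR adjusted p = 0.278). Members with an unadjusted edgeR p under 0.05 were 2 of 9, Stab1 and Cd209f, against 2951 of 16595 genes tested. DESeq2 called 0 members and 1203 genes, and edgeR called 4.01% of all genes. Cd209f had no count in either VE library, against 0.424 and 1.30 CPM in Ctrl mice M1375 and M1521, at least 9.69-fold lower in VE on group means (edgeR adjusted p = 0.281). Leaving out 1 of these mice gave limits of 4.42-fold (M1376) to 14.6-fold (M1375).

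Mrc1 was nearly level between the end-stage groups, and the other members differed without passing. Mrc1 was 2.40 and 3.64 CPM in VE mice M1376 and M1524 and 2.86 and 3.42 CPM in Ctrl mice M1375 and M1521. Cbr2 was 1.25 and 3.64 CPM in these VE mice and 6.78 and 4.52 CPM in these Ctrl mice (log2 difference -1.20 ± 1.18, edgeR adjusted p = 0.648). Mrc1 levels of VE libraries thus enclosed those of Ctrl libraries, whereas both Cbr2 levels were lower in VE. The fitted differences of Cd163 (1.04 ± 1.84), Cd209a (1.41 ± 2.62) and Lyve1 (0.76 ± 2.11) were positive, and those of Pf4 (-0.59 ± 1.17) and F13a1 (-0.46 ± 1.68) negative, each smaller than its SE. The median log2 difference of the 9 members was -0.46, against 0.02 over all genes tested. The low 8 members summed to 13.1 and 13.4 CPM in VE and 20.5 and 13.9 CPM in Ctrl.

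In brainstem-labelled libraries no member was called at either stage. Stab1 at 2 months stood at 277, 220.3 and 211 CPM in VE mice M2617, M2621 and M2624, against 199.9, 195 and 277 CPM in Ctrl mice M2618, M2629 and M2633. The highest VE and the highest Ctrl library were level, and the log2 difference was 0.08 ± 0.20 (edgeR adjusted p = 0.949). At end-stage Stab1 stood at 242 and 236 CPM in VE mice M1376 and M1524, against 266 and 278 CPM in Ctrl mice M1375 and M1521 (log2 difference -0.19 ± 0.24, edgeR adjusted p = 0.871). In both comparisons 0 members had an unadjusted edgeR p under 0.05, against 1461 genes at 2 months and 1731 at end-stage. DESeq2 called 0 members, and 198 genes at 2 months and 354 at end-stage. Few genes were called by edgeR in these libraries, 0.151% at end-stage and 0.0362% at 2 months.

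Mrc1 at 2 months in brainstem-labelled libraries was 4.53, 5.11 and 1.28 CPM in VE mice M2617, M2621 and M2624, against 0.226, 4.83 and 0 CPM in Ctrl mice M2618, M2629 and M2633 (log2 difference 1.11 ± 1.15, edgeR adjusted p = 0.829). F13a1 reached its highest level of the series, 4.17 CPM, in VE mouse M2617. Pf4 at end-stage was 0.111 and 0.596 CPM in VE mice M1376 and M1524 and 0.245 and 3.01 CPM in Ctrl mice M1375 and M1521 (log2 difference -2.18 ± 1.28, edgeR adjusted p = 0.592). The VE and Ctrl ranges of Mrc1 and of Pf4 overlapped. Under the genotype of the record Mrc1 turned round, at 0.226, 1.28 and 0 CPM in VE mice M2618, M2624 and M2633 and 4.53, 5.11 and 4.83 CPM in Ctrl mice M2617, M2621 and M2629. Those groups did not overlap, and the log2 difference of Mrc1 was -3.32 ± 1.19 (edgeR adjusted p = 1). All 9 members were then lower in VE in 2-month brainstem-labelled libraries, with a median of -2.55. Of them Mrc1, Cd163 and F13a1 had an unadjusted edgeR p under 0.05, against 603 of 16595 genes tested.

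The regions differed for Stab1 in every mouse. Stab1 averaged 240.2 ± 33.0 CPM in brainstem-labelled libraries and 148 ± 51.9 CPM in cortex-labelled libraries (SD, n = 10 each), and was higher in the brainstem-labelled library of 10 of 10 mice. The ranges, 195 to 278 CPM in brainstem-labelled and 82.2 to 234 CPM in cortex-labelled libraries, overlapped between mice. Averaged over the 4 combinations of genotype and stage, the log2 difference of brainstem-labelled minus cortex-labelled was 0.73 ± 0.11, 1.66-fold, with an edgeR adjusted p of 3.89e-04. With mouse as a block the difference was 0.74 (edgeR adjusted p = 6.05e-05), and under the genotype of the record 0.72 (edgeR adjusted p = 0.00624). In this comparison 14% of all genes were called, 6.51% higher in brainstem-labelled libraries, and Stab1 was the 1 member of 9.

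The ratio of Stab1 in the brainstem-labelled to that in the cortex-labelled library of a mouse was 3.03, 2.17 and 2.56 in 2-month VE mice M2617, M2621 and M2624, against 1.05, 1.68 and 1.32 in Ctrl mice M2618, M2629 and M2633. At end-stage it was 1.75 and 1.63 in VE mice M1376 and M1524 and 1.14 and 1.63 in Ctrl mice M1375 and M1521. The 2-month VE ratios lay above all others by count column. By the record the 2-month VE ratios are 1.05, 2.56 and 1.32 in M2618, M2624 and M2633 and the Ctrl ratios 3.03, 2.17 and 1.68 in M2617, M2621 and M2629, so that the groups overlapped. The test of the difference itself, genotype by region at 2 months, gave a log2 value of 0.98 ± 0.28 (edgeR adjusted p = 0.314) by count column and -0.65 ± 0.37 (adjusted p = 1) by the record, so it did not pass and its sign depends on the reading. The plot of Stab1 by mouse shows steep lines for the 3 VE mice at 2 months by count column and flatter ones elsewhere.

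**Figure D4:**
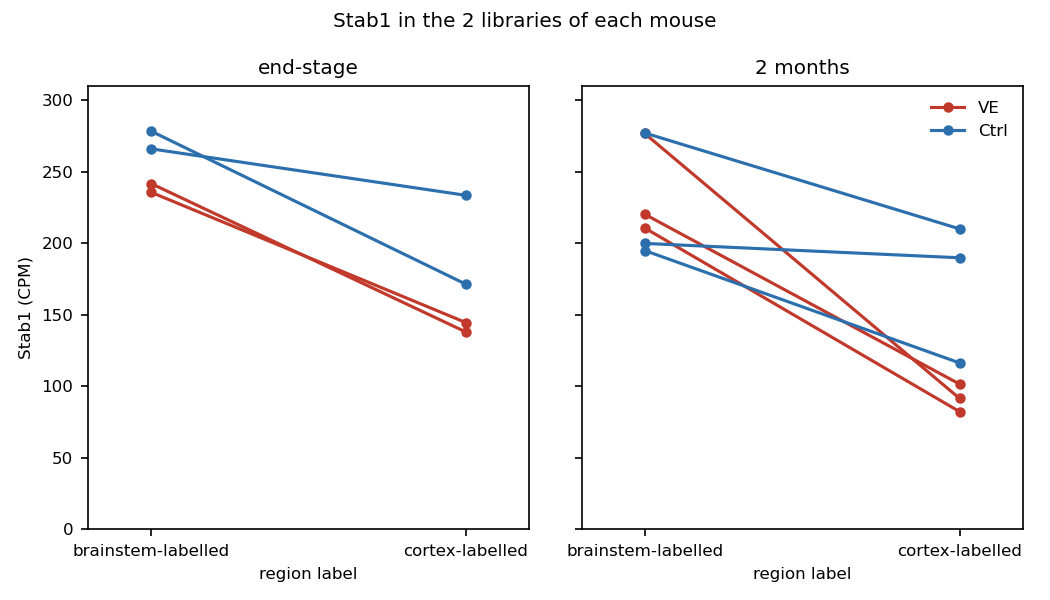
Stab1 in CPM (vertical axis) in the brainstem-labelled and the cortex-labelled library of each mouse, joined by a line, at end-stage (left) and 2 months (right); VE in red and Ctrl in blue. The line falls towards the cortex-labelled library in all 10 mice.

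Cbr2 and Mrc1 ran the other way in most mice without passing. Cbr2 averaged 1.12 ± 0.964 CPM in brainstem-labelled and 2.92 ± 2.65 CPM in cortex-labelled libraries (SD, n = 10 each), lower in the brainstem-labelled library of 8 of 10 mice (log2 difference -1.13 ± 0.55, edgeR adjusted p = 0.191). Mrc1 was lower in 8 of 10 mice, at 2.38 ± 1.90 CPM in brainstem-labelled and 2.85 ± 2.07 CPM in cortex-labelled libraries (SD, n = 10 each, edgeR adjusted p = 0.856). Pf4 was lower in 6 of 10 mice (log2 difference -1.08 ± 0.56, edgeR adjusted p = 0.218). Cd209f had a log2 difference of 2.90 ± 1.23 (edgeR adjusted p = 0.137), with 4 mice higher, 2 lower and 4 without a count in either library. The median over the 9 members was -0.26 and that over all genes -0.01.

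Some microglial genes moved with Stab1 between regions, as did some genes of other lists. Of 12, 6 were higher in brainstem-labelled libraries (P2ry12, P2ry13, Sall1, Siglech, Fcrls and Gpr34) and none was lower. Of 9 monocyte genes tested, 3 were lower there (Fn1, Ms4a4c and Ly6i). Of 6 oligodendrocyte genes 4 were lower, and of 5 astrocyte genes tested 2 were lower. Of 6 endothelial and pericyte genes tested, 1 was higher in brainstem-labelled libraries (Pecam1) and 1 lower (Pltp). Of 8 dendritic cell genes tested, 2 were higher (Itgae and Siglech, which is in both lists) and 2 lower (Flt3 and Bst2). Klrd1, the 1 T and NK cell gene tested, was higher, as was Ighm, 1 of 3 B cell genes tested. Of the microglial and monocyte genes named, P2ry13, Sall1, Gpr34 and Ly6i were not called between regions under the genotype of the record. The part of these lists in the Stab1 difference was not tested.

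Between stages, the median log2 difference of the members was 2.00 in VE cortex-labelled libraries, and 0.27 in VE brainstem-labelled, 0.23 in Ctrl cortex-labelled and 0.38 in Ctrl brainstem-labelled libraries, but none was called. In VE cortex-labelled libraries Stab1 averaged 141 ± 4.66 CPM at end-stage (n = 2) and 91.7 ± 9.64 CPM at 2 months (SD, n = 3), a log2 difference of 0.62 ± 0.22 (edgeR adjusted p = 0.184). Lyve1 stood at 2.67 and 0.455 CPM at end-stage in VE mice M1376 and M1524 and had no count in the 3 VE mice at 2 months, at least 28.8-fold higher at end-stage on group means (edgeR adjusted p = 0.214). That limit was at least 8.39-fold without M1376 and 49.2-fold without M1524. Cd163 stood at 1.36 and 2.54 CPM in the same end-stage mice and at 0, 0 and 0.154 CPM in 2-month mice M2617, M2621 and M2624 (log2 difference 5.01 ± 1.93, edgeR adjusted p = 0.232). For these 3 genes the end-stage libraries all lay above the 2-month libraries. Members with an unadjusted edgeR p under 0.05 were these 3 of 9, against 2340 of 16595 genes tested. DESeq2 called 0 members and 776 genes, and edgeR called 1.84% of all genes. Under the genotype of the record these differences shrank or turned. The Stab1 difference was -0.19 ± 0.29 (edgeR adjusted p = 0.827), with 141 ± 4.66 CPM at end-stage (n = 2) and 161 ± 68.7 CPM at 2 months (SD, n = 3). Lyve1 averaged 1.56 CPM at end-stage and 1.59 CPM at 2 months, and Cd163 1.95 CPM at end-stage and 0.822 CPM at 2 months. The median over the 9 members was then -0.0027, and 0 members were called, against 1.43% of all genes. None of the members had an unadjusted edgeR p under 0.05, against 2504 of 16595 genes tested.

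In the other stage comparisons no member was called by edgeR or DESeq2 and 0 had an unadjusted edgeR p under 0.05. They were VE brainstem-labelled libraries, in which 0.0422% of all genes were called, and Ctrl cortex-labelled and Ctrl brainstem-labelled libraries, in both of which edgeR called 0% of genes. In the VE comparison 1704 genes had an unadjusted edgeR p under 0.05, and DESeq2 called 196 genes. In these Ctrl comparisons 1432 and 1367 genes had an unadjusted edgeR p under 0.05, and DESeq2 called 35 and 55. The tests of whether genotype effects differed between regions or stages called no member either. The shares of all genes called by edgeR were 0.0844% for genotype by region at end-stage, 0.0241% at 2 months, 0.265% for genotype by stage in cortex-labelled libraries and 0.00603% in those labelled brainstem. Members with an unadjusted edgeR p under 0.05 were Lyve1 and Stab1 for genotype by region at 2 months, against 1381 of 16595 genes. For genotype by stage in cortex-labelled libraries Lyve1 was the 1 member, against 1645 genes. For genotype by region at end-stage and genotype by stage in brainstem-labelled libraries there were 0, against 882 and 733 genes. DESeq2 called 0 members in all 4, and 89, 98, 242 and 14 genes in the order of the shares above. Under the genotype of the record edgeR called 0 members in these 4 too, and 0, 0, 75 and 4 of 16595 genes in the same order. In the other stage comparisons it also called 0 members under that reading. Genes called there were 8 in VE brainstem-labelled, 3 in Ctrl cortex-labelled and 2 in Ctrl brainstem-labelled libraries. For genotype by region at 2 months, where 0% of genes were called, all 9 members then had the opposite sign.

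Other genes associated with border-associated macrophages did not move as 1 group. Of 20 listed, 15 had enough counts to test. At 2 months in cortex-labelled libraries, Siglec1, the sialic acid receptor CD169, rose in VE to 97.8, 64.8 and 109 CPM in M2617, M2621 and M2624, against 1.15, 4.46 and 1.85 CPM in Ctrl mice M2618, M2629 and M2633. The log2 difference of Siglec1 was 5.16 ± 1.09 (edgeR adjusted p = 0.00917). Lilra5, a leukocyte immunoglobulin-like receptor, fell, at 4.46, 4.51 and 8.49 CPM in these VE mice and 13.4, 31.4 and 16.9 CPM in these Ctrl mice (log2 difference -1.82 ± 0.41, edgeR adjusted p = 0.0124). Neither gene's groups overlapped, and under the genotype of the record neither was called (both with an edgeR adjusted p of 1). The median over the 15 was -0.70.

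At end-stage in cortex-labelled libraries 1 of the 15 was higher in VE and none lower. Colec12, a scavenger receptor of the collectin family, stood at 41.1 and 196 CPM in VE mice M1376 and M1524, against 0 and 0.0684 CPM in Ctrl mice M1375 and M1521 (log2 difference 11.25 ± 1.93, edgeR adjusted p = 0.00355). Colec12 was therefore at background in Ctrl. In VE mouse M1376 it was above every member but Stab1, which stood at 137.9 CPM. In M1524 it was above every member, with Stab1 at 144 CPM. It was not called in the fit that uses the genotype of the record at 2 months (edgeR adjusted p = 0.0758). Its fitted fold depends on the prior count, since the Ctrl libraries held 1 or 0 counts each. Siglec1 stood at 28.8 and 218 CPM in these VE mice and 3.28 and 7.25 CPM in these Ctrl mice and was not called (log2 difference 4.52 ± 1.29, edgeR adjusted p = 0.0594). None of the 15 was called by genotype in brainstem-labelled libraries at either stage.

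Between regions, 3 of the 15 were lower in brainstem-labelled libraries, Siglec1 (log2 difference -2.28 ± 0.58, edgeR adjusted p = 0.0140), Ms4a7 (-2.61 ± 0.71, adjusted p = 0.0205) and Wfdc17 (-2.96 ± 0.61, adjusted p = 0.00352). One direction did not cover the list, since Slc40a1, the iron exporter ferroportin, was higher there, at 324 ± 104 CPM in brainstem-labelled and 187.6 ± 108 CPM in cortex-labelled libraries (SD, n = 10 each, edgeR adjusted p = 0.0147). Siglec1 was not called between regions under the genotype of the record (edgeR adjusted p = 0.115). Slc40a1 and Stab1 were each higher in the brainstem-labelled library of 10 of 10 mice.

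**Figure D5:**
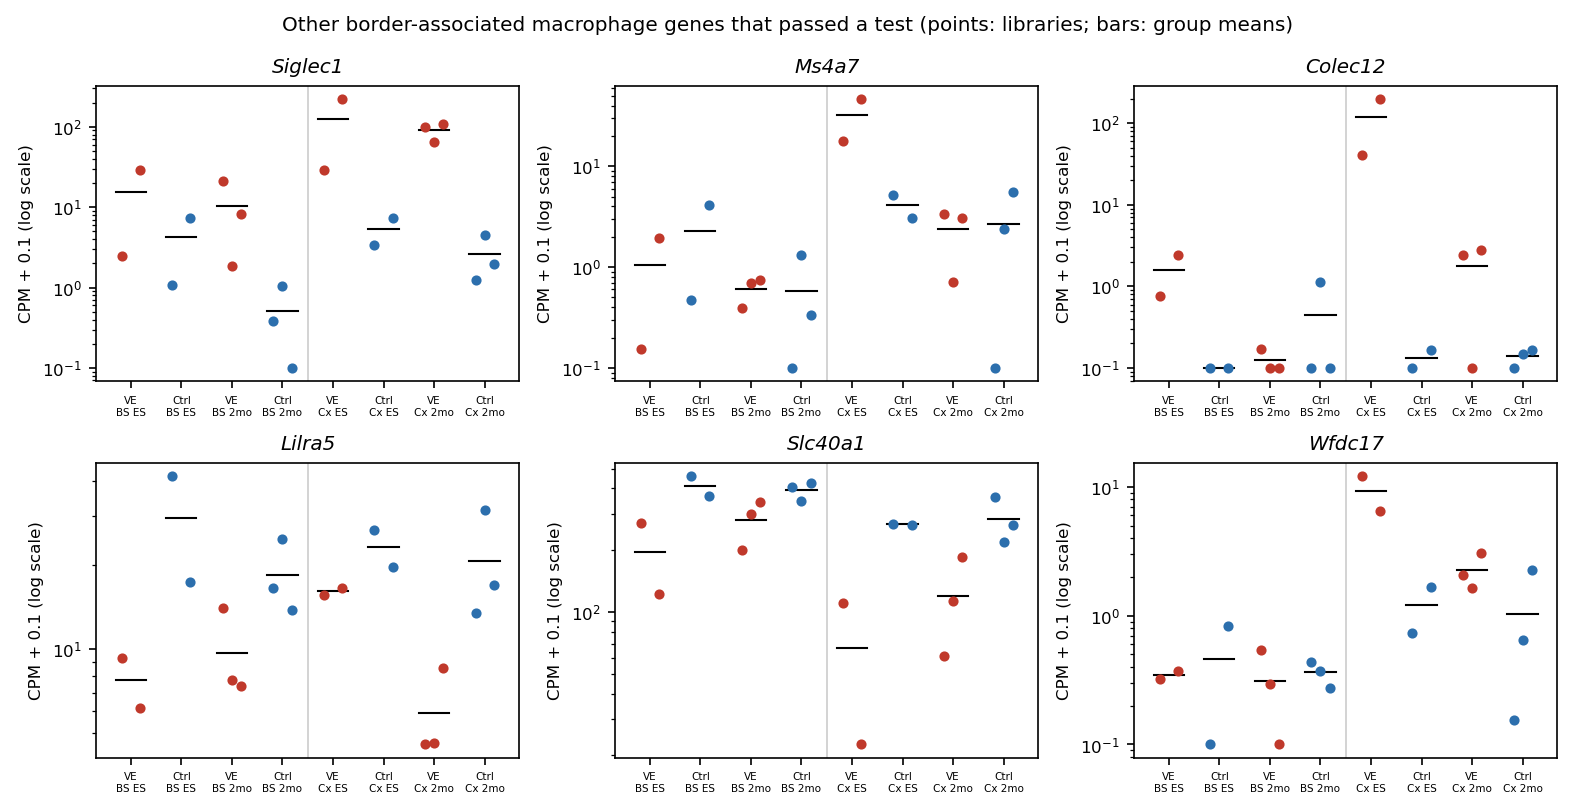
CPM + 0.1 (vertical axis, log scale) of 6 other border-associated macrophage genes that passed a genotype or region test, by region label, stage and genotype; points are libraries and bars group means. Colec12 reaches 41.1 and 196 CPM in end-stage VE cortex-labelled libraries, and Siglec1 64.8 to 109 CPM in 2-month ones.

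Scavenger receptors and lectins other than the members were called in VE where most members were not, but their differences ran both ways. Mgl2, Clec10a, Cd209b, Cd209d and Cd209g also stand in the list of other border-associated macrophage genes. Of 24 listed, 18 were tested. In VE cortex-labelled libraries at end-stage 4 were higher (Msr1, Mrc2, Clec7a and Lgals3) and none lower, with 13 positive and 5 negative differences and a median of 1.35. In those at 2 months 4 were higher (Msr1, Cd36, Mrc2 and Clec7a) and none lower, yet 11 differences were negative and 7 positive, with a median of -0.33, the same sign as the median of the members. In brainstem-labelled libraries 1 was higher in VE at end-stage, Mrc2 (log2 difference 2.98 ± 0.35, edgeR adjusted p = 0.00169), and none was called at 2 months. Mrc2, the paralogue of Mrc1, was thus called higher in VE in 3 of the 4 genotype comparisons, in none of which Mrc1 was called. In the fit that uses the genotype of the record, Lgals3 at end-stage in cortex-labelled libraries was the 1 of these calls that passed. Whether the list and the members differ from each other was not tested.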

How the data were processed

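Microglial RNA from 20 libraries was sequenced after amplification with the SMART-Seq v4 kit, per the labels' protocols. The deposited values are raw, unnormalized read counts per gene, 1 column for each library. The submitters' processing notes name FastQC, Subread, edgeR and mm10, with neither versions nor roles. The sources used here state neither the annotation nor how strand and multi-mapping reads were handled. Of 55487 identifiers, 55094 were matched to symbols with GENCODE M21.

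The counts were analysed with edgeR 4.0.16 (R 4.3.3): genes kept by filterByExpr, TMM factors, 1 quasi-likelihood model over 8 groups, Benjamini-Hochberg adjustment over 16595 genes, threshold 0.05, 13 comparisons. Standard errors were derived from each log2 difference and its F statistic. CPM use TMM-scaled library sizes. Limits from counts cover counting error only. The fit was tested on data simulated with changes only in genes of higher counts than the members other than Stab1. That test therefore does not cover those members. Mouse numbers pair the 2 libraries of an animal: their deviations from the group means correlated in all 10 mice (r 0.139 to 0.407). In end-stage groups of 2 mice both share 1 r by construction, 0.139 in Ctrl and 0.407 in VE. No r between libraries of different mice was computed for comparison. Members and lists were chosen with earlier results of these data known. The text names all members, listed genes that passed (up to 4 per list and comparison by p) and the 3 genes most like Stab1, with the closest 1 for each other member. Alternatives were RLE factors, DESeq2 1.42.0, no low-count filter, the compared groups alone, the record's genotype, mouse as a block and leaving out each mouse.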

Additional observations from a re-analysis of the deposited data

How the results depend on the processing

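Of 1957 member values under alternatives, 1939 kept their direction and side of the threshold or were uncalled both times, 3 lost a call, 14 gained one and 1 reversed. A further 181 uncalled values changed sign. The reversal was Stab1 at 2 months in cortex-labelled libraries, at 0.641 under the genotype of the record. There 0 members and 1 of 16595 genes were called. An alternative chosen after seeing the data kept only M2624 and M2629 at 2 months. It left 1 mouse in each 2-month group, so its calls are not read as a result about the members. Leaving out 1 mouse gave 0 to 1 members for genotype at 2 months in cortex-labelled libraries, with 462 to 962 genes called. With mouse as a replicate block, which changed no member call, 1 member was called between regions (Stab1, 0.742), with 2926 of 16595 genes.

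Without the low-count filter 33450 genes were tested. Members called for genotype in cortex-labelled libraries were then 6 at 2 months (Stab1, Lyve1, Cd209a, Cbr2, Cd163 and Cd209f), with 1551 genes called. At end-stage 1 was called there (Cd209f), with 1282 genes. Between regions 3 were called (Stab1, Cd209f and Cbr2), with 2872 genes. For stage in VE cortex-labelled libraries 2 were called (Cd163 and Lyve1), with 963 genes. For genotype by region at 2 months 2 were called (Lyve1 and Stab1), with 350 genes. For genotype by stage in cortex-labelled libraries 2 were called (Lyve1 and Cd209a), with 565 genes. Genes called at 2 months in cortex-labelled libraries then numbered 1551, with DESeq2 1562 and under the genotype of the record 1, against 904 in the reported fit. The cause was not tested. RLE factors and the compared groups alone changed no member call. Outside Stab1 the members held 171 to 887 counts each over the 20 libraries, so changes in them may lie below what this depth can show.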
